A study of Mus musculus with 3 samples.

Results

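Integrins and laminins were followed in single cells of ectopic tissue masses, taken as every integrin alpha chain (Itga), integrin beta chain (Itgb), and laminin alpha, beta and gamma chain (Lama, Lamb, Lamc) in the gene list, chosen by symbol and not by level. This gave 38 of 31053 genes: 27 integrin chains, of which 18 were alpha and 9 beta chains, and 11 laminin chains. The mice were CD1, which is an outbred stock, and the masses were taken on day 5. One group carried Matrigel, a gel of basement membrane proteins, with nothing added. Another carried Matrigel with recombinant human BMP2, an inducer of ectopic cartilage and bone, and received pre-immune control IgG systemically. The last carried the same BMP2 implant and received an antibody that neutralizes activin A, a TGF-beta family ligand. They are called the Matrigel, IgG and antibody libraries below, and all 3 contained Matrigel. Each group was 1 library. The sources used here do not give age, sex or the number of animals per library. No result below has a replicate, a test or a p-value. Intervals are 95% counting intervals, which leave out the variation between animals, implants and preparations.

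Integrins are heterodimers of an alpha and a beta chain that hold cells to extracellular matrix or to other cells. Which pair a cell makes sets which ligand it can hold: collagen, laminin, ligands with an RGD motif such as fibronectin and vitronectin, or cell surface counter-receptors on leukocytes and endothelium. Laminins are heterotrimers of 1 alpha, 1 beta and 1 gamma chain and form the sheet of a basement membrane, onto which nidogen and collagen IV are joined. Matrigel itself is rich in laminin protein, which an RNA assay does not count.

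The cell classes compared were 3. Mesenchymal cells were those with at least 1% of their UMIs (unique molecules) from Col1a1, Col1a2 and Col3a1. There were 1982, 1478 and 592 of them in the Matrigel, IgG and antibody libraries, with median depths of 8752.5, 17191 and 19186.5 UMIs. Macrophages numbered 5553, 3191 and 3075 cells, with medians of 3052, 3203 and 4404 UMIs. Lymphoid cells (T, NK and B) numbered 163, 314 and 1511, with medians of 1207, 1951.5 and 1722 UMIs. Few cells lay near the collagen rule: 11, 23 and 11 cells lay just inside it at 1 to 1.2%, and 6, 23 and 11 just outside at 0.8 to 1%. Of the cells that met it, 2, 6 and 3 sat in clusters named as immune. The 7 mesenchymal markers summed to 77987, 52810.1 and 51646.5 CPM in the class, against 484, 583 and 173 CPM in macrophages. Whole libraries held 44252421, 46317250 and 38163880 UMIs, and pairs of libraries shared between 7 and 19 cell barcodes. Levels are CPM, UMIs of a gene over all UMIs of a class in a library, times 1000000. Counting was per molecule at the 3' end, so levels were not scaled by transcript length. A chain counts as measured where either library of a comparison held 10 or more of its UMIs. It counts as higher or lower when the levels differed 1.5-fold or more.

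The main laminin chains were mesenchymal. Lamc1 (chr1:153218922-153332786, GRCm38), the gamma chain of most laminins, was at 383, 123 and 217 CPM in mesenchymal cells (Matrigel, IgG, antibody, the order kept below). Macrophages held 11.6, 14.0 and 9.665 CPM of it. Lama4 was at 274, 146 and 193 CPM, and Lamb1 at 240.2, 133 and 188 CPM. Lamb2 was at 239, 129 and 151 CPM. Together these are the chains of laminins found in mesenchymal and vascular basement membranes. Lama2 (chr10:26980036-27619758), the alpha chain of the laminin of muscle and nerve, was at 115, 13.2 and 34.5 CPM. In every one of these 5 chains the Matrigel library was highest, the IgG library lowest and the antibody library in between. The 8 endothelial markers had the same order in these cells, at 64.4, 17.3 and 36.4 CPM in sum, with Emcn at 0 UMIs in the Matrigel, Cldn5 in the IgG, and Cdh5 and Emcn in the antibody library. Dendritic and keratinocyte markers had that order in sum too. Pericyte and smooth muscle markers did not, at 61.5, 92.2 and 62.9 CPM, nor did Schwann markers, at 15.9, 26.3 and 11.8 CPM. Skeletal muscle markers were at 3.40, 23.8 and 17.1 CPM. No endothelial class was found, and the part of endothelial or these other cells in the laminin values was not tested.

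**Figure D1:**
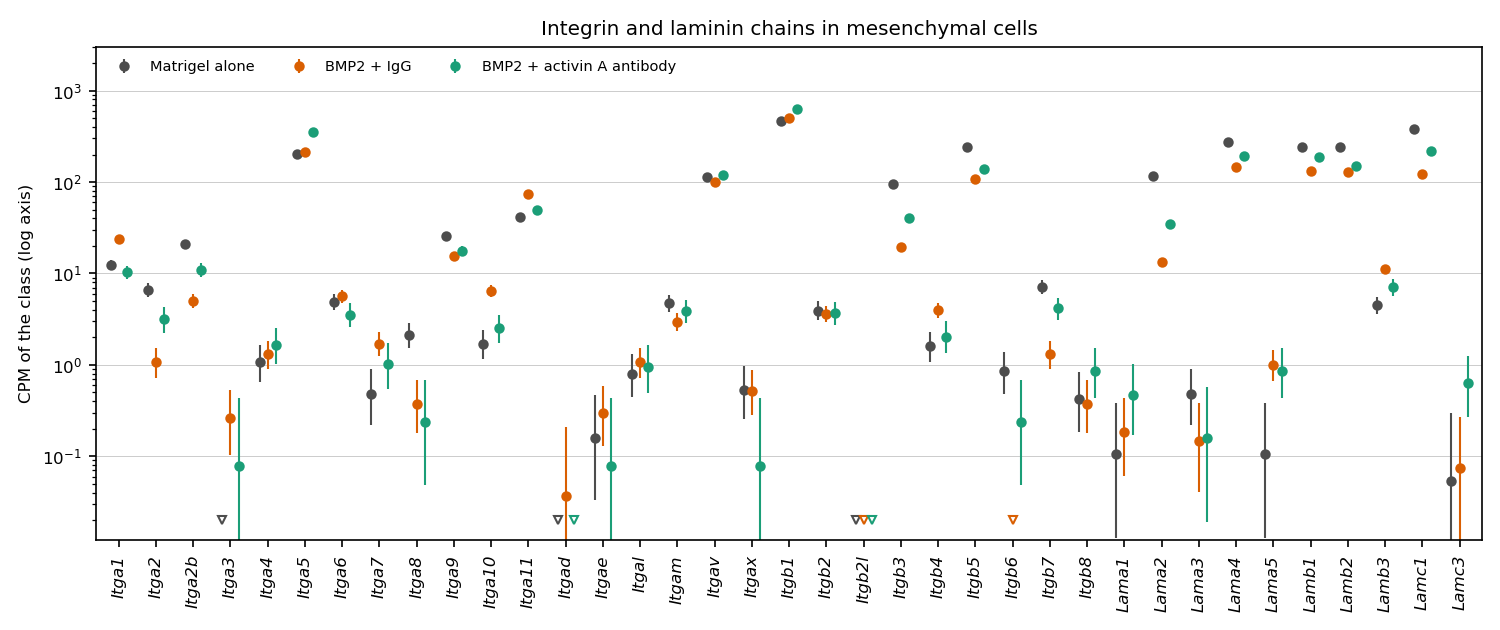
Levels of the chains in mesenchymal cells, in CPM on a log axis, for the Matrigel (grey), IgG (orange) and antibody (green) libraries. Bars are 95% Poisson intervals of counting, and open triangles at the foot mark 0 UMIs. Lama2 spans 115 to 13.2 CPM, while Itgb1, Itga5 and Itgav stay above 100 CPM in all libraries.

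Of the 8 laminin chains measured between the IgG and Matrigel libraries in mesenchymal cells, 6 were lower with BMP2 and IgG and 2 were higher. Their median log2 ratio was -0.90, against -0.03 over all 14339 genes measured, of which 21.1% were lower and 16.6% higher by the same rule. Lama2 had a ratio of 0.115 (0.102 to 0.128), the lowest of the laminins. The ratio was 0.321 (0.308 to 0.334) for Lamc1, 0.534 (0.512 to 0.557) for Lama4, 0.541 (0.517 to 0.566) for Lamb2 and 0.552 (0.528 to 0.577) for Lamb1. Lamb3, a beta chain known from epithelial basement membranes, went the other way, from 4.46 to 11.2 CPM, a ratio of 2.50 (1.96 to 3.23). Lama3, an alpha chain of the same membranes, had only 9, 4 and 2 UMIs in the mesenchymal cells of the 3 libraries. The other chain counted as higher was Lama5, with 2, 27 and 11 UMIs, a ratio of 9.44 (2.37 to 81.9). In the IgG library it was at under 10% of its level in basophils.

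RefSeq promoter windows of Lama2 and Lamb2, which were lower, and of Itga11, a collagen-binding integrin that was higher (below), are shown so that the levels can be read beside the DNA. They are the 250 bases before the start site in RefSeq (build GRCm38.p6), 5′ to 3′ on the gene's strand. Of the 38 genes, 24 had an entry in that table. Capitals mark matches, on either strand, to 4 motifs searched: GGCGCC (a GC-rich SMAD1/5 element), CAGACA (a SMAD3/4-type element), TGANTCA (AP-1) and TGTGGT (RUNX). Of 32851 promoter windows of this length, 9.59% held GGCGCC, 17.1% CAGACA, 6.75% TGANTCA and 14.0% TGTGGT. The windows are chr10:27616943-27617192 on the minus strand for Lama2, and, on the plus strand, chr9:108479612-108479861 for Lamb2 and chr9:62677605-62677854 for Itga11. GENCODE vM21 starts these genes further upstream, so that the RefSeq start lies 2816 bases inside the gene for Lama2, 126 for Lamb2 and 29 for Itga11, and the whole Lama2 window lies within that gene.
Lama2: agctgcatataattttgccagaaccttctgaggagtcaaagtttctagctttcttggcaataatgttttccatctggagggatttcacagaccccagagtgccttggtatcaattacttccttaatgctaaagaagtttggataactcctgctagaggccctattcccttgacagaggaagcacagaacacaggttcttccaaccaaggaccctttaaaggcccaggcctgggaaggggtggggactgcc
Lamb2: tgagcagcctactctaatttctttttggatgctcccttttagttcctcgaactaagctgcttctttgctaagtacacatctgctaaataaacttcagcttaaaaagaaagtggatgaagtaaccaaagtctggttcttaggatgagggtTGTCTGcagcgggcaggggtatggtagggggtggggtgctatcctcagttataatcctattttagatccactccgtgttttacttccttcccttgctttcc
Itga11: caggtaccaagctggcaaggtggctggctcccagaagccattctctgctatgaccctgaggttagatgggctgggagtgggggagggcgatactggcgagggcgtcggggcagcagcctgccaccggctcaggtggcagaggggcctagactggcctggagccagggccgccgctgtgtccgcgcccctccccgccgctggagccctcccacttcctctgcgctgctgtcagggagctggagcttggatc
Lamb2 held CAGACA once, as its reverse complement. None of the 4 motifs was found in these windows of Lama2 and Itga11. Windows of Lamb1 and Itga10 were chosen too, but are not shown because they overlap more annotated untranslated sequence. That of Lamb1, which was lower, held 1 match to GGCGCC, and that of Itga10 held none of the 4 motifs. GC content was 47.2% for Lama2, 43.6% for Lamb2 and 68.4% for Itga11.

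Basement membrane partners of the laminins divided. Of 19 partners and laminin receptors, 18 were measured between the IgG and Matrigel libraries in mesenchymal cells, 9 of them higher (background 16.6%) and 7 lower (background 21.1%). Bcam, among the higher, was at under 10% of its level in another class in both libraries. Without it 8 of 17 were higher and 7 lower. Nid1, the nidogen that links laminin to collagen IV, went from 1358 to 179 CPM, a ratio of 0.132 (0.128 to 0.136). Col4a1 and Col4a2, the common collagen IV chains, had ratios of 0.131 (0.118 to 0.146) and 0.118 (0.101 to 0.136). Ntn4, a laminin-binding netrin, had a ratio of 0.058 (0.0465 to 0.0717), and Dag1, the laminin receptor dystroglycan, 0.504 (0.481 to 0.529). Higher were Nid2 at 2.28 (1.97 to 2.63), Agrn (agrin) at 1.93 (1.75 to 2.14), and the syndecans Sdc1 at 2.04 (1.91 to 2.18) and Sdc4 at 1.64 (1.57 to 1.72). Between the antibody and IgG libraries 4 of the 18 were higher (background 9.9%) and 2 lower (background 12.7%), with Nid1 at 2.45 (2.36 to 2.55) and Ntn4 at 5.40 (4.23 to 6.92). Without Bcam, 4 of 17 were higher and 1 lower. Perlecan (Hspg2) was at 489 and 427 CPM, within the 1.5-fold bounds. Nid1, Col4a1 and Col4a2 were thus lower in the same library as the laminins, while Col4a5 and Col4a6 were among the higher partners.

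Integrin beta chains in mesenchymal cells were mostly Itgb1, the common partner of collagen-, laminin- and fibronectin-binding alpha chains. It was at 463, 502 and 629 CPM, and took 57.0%, 78.7% and 76.9% of all beta-chain UMIs. Itgb3 and Itgb5, which are among the beta chains that pair with alpha-v, were lower in the IgG library. Itgb3 (chr11:104608000-104670476) was at 95.6, 19.5 and 40.4 CPM, an IgG to Matrigel ratio of 0.204 (0.185 to 0.225). Itgb5 was at 239.9, 107 and 137 CPM, a ratio of 0.446 (0.425 to 0.467). Their common alpha partner Itgav differed less, at 113, 100.3 and 119 CPM. Itga2b, known as the platelet alpha chain that pairs with Itgb3, was at 20.8, 5.05 and 11.0 CPM, a ratio of 0.243 (0.199 to 0.296). The 4 platelet markers summed to 3.45, 2.15 and 2.04 CPM in these cells, with Gp9 at 0 UMIs in each library. The mesenchymal Itga2b level in the IgG and antibody libraries was under 10% of that in basophils of the same library, so free RNA could set it there.

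The alpha chains of mesenchymal cells were led by Itga5, the fibronectin receptor chain (chr15:103344286-103366763), at 204, 211 and 356 CPM. The IgG to Matrigel ratio of Itga5 was 1.03 (0.990 to 1.08). Itga9, which binds tenascin and osteopontin, was at 25.9, 15.6 and 17.6 CPM, a ratio of 0.604 (0.529 to 0.690). Of the 4 collagen-binding chains, 3 were higher and 1 lower. Itga11, a fibroblast receptor for fibrillar collagen (chr9:62677826-62783982), was at 41.6, 74.4 and 49.3 CPM, a ratio of 1.79 (1.64 to 1.94). Itga1 was at 12.5, 24.0 and 10.3 CPM, a ratio of 1.92 (1.65 to 2.24). Itga10, the chain of cartilage cells (chr3:96645584-96664519), was at 1.70, 6.50 and 2.51 CPM, a ratio of 3.82 (2.61 to 5.76). Itga2 was lower, at 6.58 and 1.08 CPM. Itga1 and Itga10 fell outside the naming rule and were chosen after their values were seen: Itga10 was under 10 CPM, and Itga1 was under 10% of its level in basophils of the IgG library. Macrophages of that library held 7.46 CPM of Itga1. Other mesenchymal chains with values given here were also under 10 CPM and outside that rule. They were Itga2, Itga6, Itga7, Itga8, Itgb4, Itgb6, Lama3 and Lama5.

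The laminin-binding alpha chains were low in mesenchymal cells. Itga6 was at 4.89, 5.60 and 3.53 CPM, and Itga7, the chain of muscle attachment to laminin, had 9, 46 and 13 UMIs. Itgb4, the partner of Itga6 in epithelial hemidesmosomes, was at 1.59, 3.97 and 2.04 CPM, an IgG to Matrigel ratio of 2.49 (1.65 to 3.87). Itga8, an RGD-binding chain of some smooth muscle and mesenchyme, had 40, 10 and 3 UMIs, and Itgb6, an epithelial partner of alpha-v, 16, 0 and 3 UMIs.

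Across integrins and laminins together, 31 of 38 chains were measured in mesenchymal cells between the IgG and Matrigel libraries, 7 of them higher (background 16.6%) and 15 lower (background 21.1%). Their median log2 ratio was -0.23. Lower chains were 48.4% of those measured, above the 21.1% over all genes. Higher chains were 22.6%, closer to their background of 16.6%. Not measured were Itga3, Itgad, Itgae, Lama1, Lama3, Lamc3 and Itgb2l, the last with 0 UMIs in all 3 libraries. Leukocyte chains (Itgal, Itgam, Itgax, Itgb2, Itgb7, Itga4) were at 0.08 to 7.06 CPM in mesenchymal cells and at under 10% of their level in an immune class, so free RNA could set them. Leaving out the 7 chains this applies to (these 6 and Itgb8), 7 of 24 were higher and 13 lower. That filter asks for a low share in both libraries. It could not weigh basophils of the Matrigel library, which had 1 such cell. Itga1 and Lama5 thus stay among the 7 higher chains. In the IgG library they were at 1.62% and 0.173% of their level in basophils, so free RNA could set them there. The 12 macrophage markers summed to 306, 219 and 186 CPM in mesenchymal cells with none at 0, and their part in these values was not tested.

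**Figure D2:**
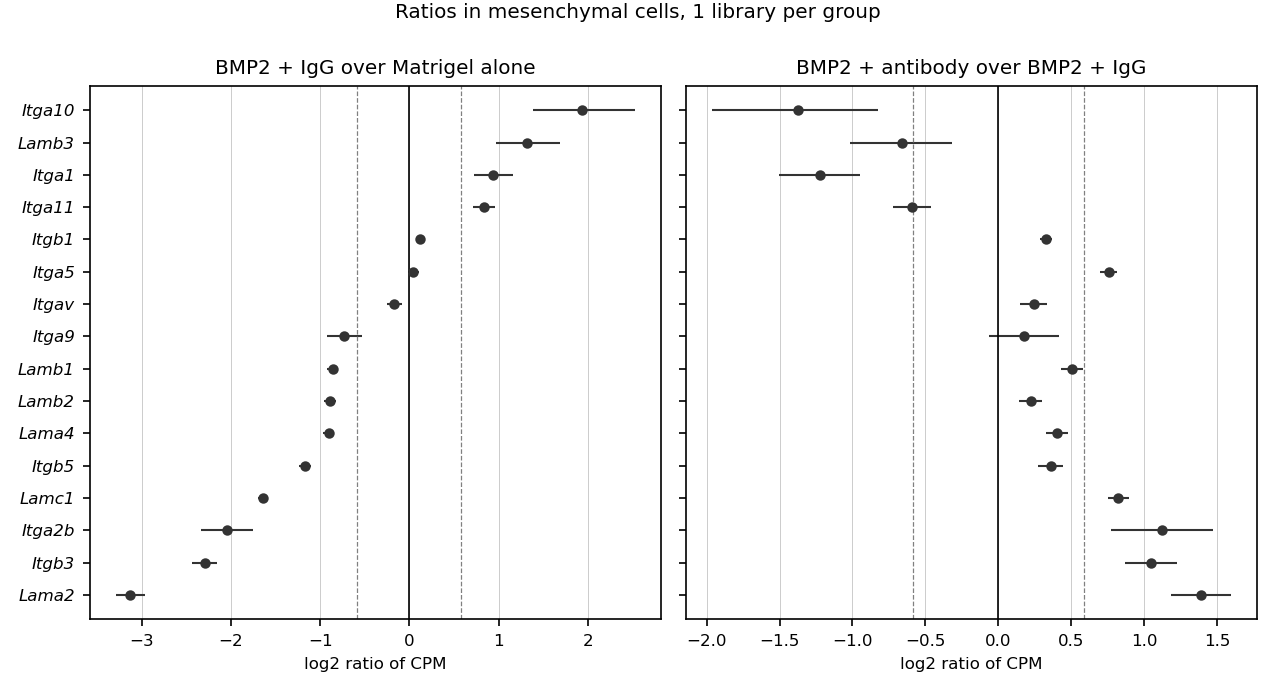
Log2 ratios of CPM in mesenchymal cells, the IgG library over the Matrigel library (left) and the antibody library over the IgG library (right), with 95% counting intervals. Drawn are the described chains that met the naming rule, with Itga1 and Itga10 added. Dashed lines mark 1.5-fold in either direction. Both panels use the same IgG library. Of the chains drawn, Lama2 has the lowest ratio on the left, 0.115, and the highest on the right, 2.62.

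Between the antibody and IgG libraries, 30 chains were measured in mesenchymal cells, 9 higher (background 9.9%) and 9 lower (background 12.7%). The median log2 ratio was 0.28, against -0.07 over all genes. Without 12 chains whose level free RNA could set, Itga1, Itga2 and Itga2b among them, 6 of 18 were higher and 5 lower. Both comparisons use the IgG library, so a low value there makes the 2 ratios of a gene move apart by itself, and no overlap between them is counted. Of 8 laminins, 3 were higher and 1 lower. The antibody to IgG ratio was 2.62 (2.27 to 3.02) for Lama2 and 1.77 (1.68 to 1.86) for Lamc1. Lama2 is the chain that moves most with weighting: averaged over cells its ratio was 3.96. Lamb1 was at 1.42 (1.34 to 1.49), below the 1.5-fold line, and above it at 1.54 when averaged over cells. Lamb3 was lower, at 0.632 (0.494 to 0.802).

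Among integrins, Itga5 was higher with the antibody at a ratio of 1.69 (1.62 to 1.76) and Itgb3 at 2.07 (1.83 to 2.34). Itgb1 was at 1.25 (1.22 to 1.29), inside the 1.5-fold bounds. Of the 4 collagen-binding chains 3 were lower in the antibody library: Itga1 at 0.429 (0.352 to 0.518), Itga10 at 0.386 (0.256 to 0.566) and Itga11 at 0.663 (0.605 to 0.726). Averaged over cells the Itga11 ratio was 0.849, which ends that call. The other chain, Itga2, was higher, at 1.08 and 3.14 CPM, a ratio of 2.91 (1.76 to 4.87). Free RNA could set Itga1 and Itga2 in this comparison, which leaves Itga10 and Itga11. Itga5 took 61.4% of alpha-chain UMIs in the antibody library, against 46.6% in the IgG and 46.3% in the Matrigel library. Itga11 took 8.51%, 16.5% and 9.45% in the same order.

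Shares of cells put the libraries in the same order for Itga11. After thinning each cell to 1000 UMIs, 3.71% of 1912 Matrigel cells, 7.83% of 1443 IgG cells and 6.75% of 578 antibody cells of the mesenchymal class had an Itga11 UMI. The Clopper-Pearson 95% intervals were 2.91 to 4.66%, 6.50 to 9.34% and 4.84 to 9.11%, so the IgG and antibody shares were not distinguishable at this depth. Cells under 1000 UMIs, 70, 35 and 14, were left out. Macrophages, which should lack Itga11, gave 0 of 5309 cells, which allows a share of up to 0.0565%, then 0.1% and 0.0684%. Unthinned, the mesenchymal shares were 26.2%, 59.3% and 48.1% and the macrophage shares 0.072%, 0.533% and 0.195%, at the median depths given above.

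The mesenchymal class did not hold the same cells in each library. Cluster 3, whose leading genes were Pi16, Clec3b and Igfbp5, gave the class 824, 60 and 142 cells, and cluster 2 (Cilp, Mgp, Col15a1) 738, 136 and 46. Cluster 18 (Inhba, Acta2, Tnc) held 16, 886 and 318. A chondrocyte-like cluster held 0, 329 and 30, and cluster 9 (Aqp1, Barx2) 316, 2 and 18. The 7 chondrocyte markers summed to 76.9, 4343 and 947 CPM over the class. A cluster found mainly in 1 library may reflect that library. These clusters were picked for display after the clustering was seen, and integrins and laminins had been left out of the genes that formed them.

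Inside clusters 2 and 3, Lama2 and Lamc1 stood closer between libraries than in the class as a whole. In cluster 3, Lamc1 was at 578, 489 and 510 CPM and Lama2 at 185, 165 and 198 CPM. The IgG to Matrigel ratio there was 0.846 (0.757 to 0.943) for Lamc1, and for Lama2 0.892 (0.734 to 1.08). In cluster 2, Lamc1 was at 271, 282 and 292 CPM, and Lama2 at 117, 89.7 and 75.4 CPM. Lamb3 did not follow this: in cluster 2, on 12 and 10 UMIs, its IgG to Matrigel ratio was 3.34 (1.29 to 8.45), against 2.50 in the class. Cluster 18 held little Lama2, at 3.495 CPM in IgG and 3.68 CPM in antibody cells, and the chondrocyte-like cells 1.37 and 1.37 CPM. Within the IgG library alone Lama2 therefore ran from 165 CPM in cluster 3 to 1.37 CPM in chondrocyte-like cells. In cluster 3, Itgb5 was at 295, 274 and 314 CPM. Itgb3 was at 122, 109 and 69.7 CPM there, an IgG to Matrigel ratio of 0.895 (0.702 to 1.13). Its antibody to IgG ratio in cluster 3 was 0.639 (0.477 to 0.859), the opposite direction to the class, and in cluster 2 it was 0.738 (0.451 to 1.17).

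Other differences were present within cluster 18, where 886 IgG and 318 antibody cells can be set side by side. Itga5 was at 265 and 462 CPM there, an antibody to IgG ratio of 1.74 (1.67 to 1.82). Itga5 was lower with the antibody in cluster 2, at a ratio of 0.646 (0.476 to 0.866), and was at 0.722 (0.528 to 0.995) in cluster 3 and 1.04 (0.789 to 1.34) in chondrocyte-like cells. In cluster 18 Itgb3 had a ratio of 2.16 (1.84 to 2.53) and Lamc1 of 1.48 (1.39 to 1.59). Itga11 was at 80.4 and 42.5 CPM, a ratio of 0.528 (0.471 to 0.592), and Itga1 at 0.441 (0.352 to 0.548). Free RNA could set Itga1 in the class in this comparison, as given above. Lama2 had a ratio of 1.05 (0.670 to 1.63). In cluster 3 Itga11 had the opposite direction, with 50.4 and 101 CPM and a ratio of 2.00 (1.39 to 2.93). Itga10 was at 23.9 CPM in chondrocyte-like cells of the IgG library and at 1.75 CPM in its cluster 18.

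**Figure D3:**
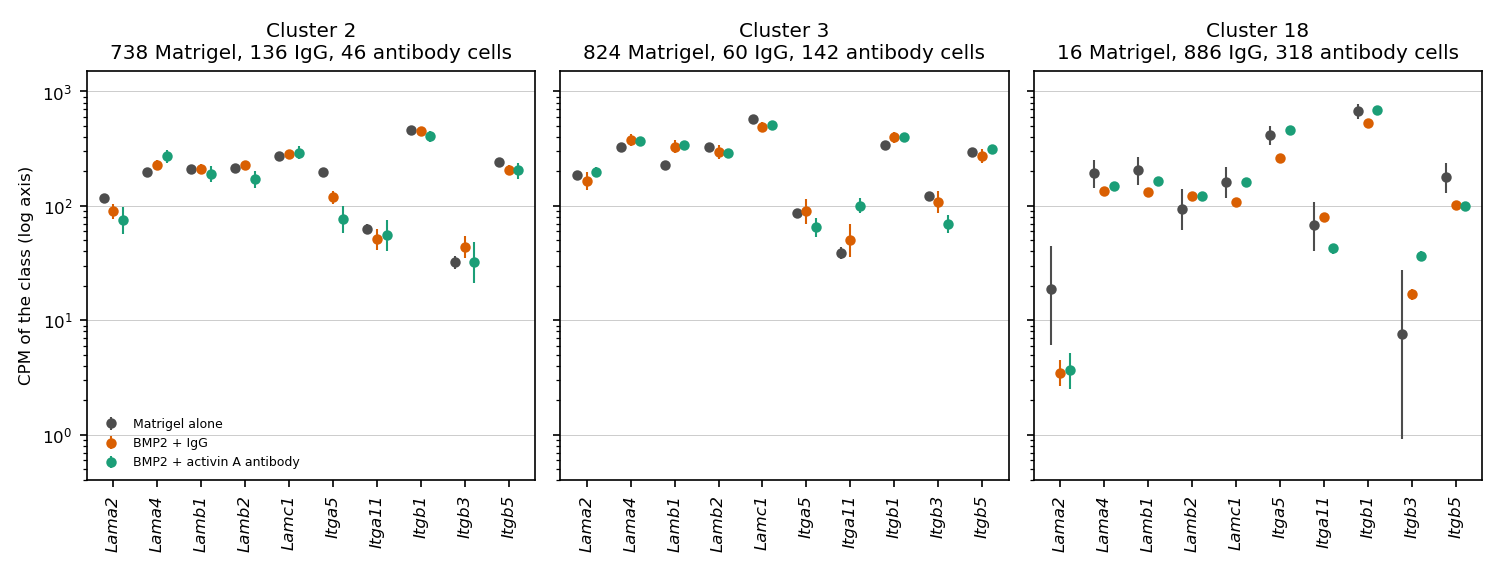
CPM (log axis) of 10 chains within 3 mesenchymal clusters, by library, with 95% Poisson intervals of counting. The numbers of cells are in the panel titles. In cluster 3 Lamc1 lies between 489 and 578 CPM in all libraries. In cluster 18 Itga5 is at 265 in IgG and 462 in antibody cells.

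For the machinery that couples integrins to actin the shares were near those over all genes in the first comparison. Of 25 adhesion genes, 23 were measured in mesenchymal cells, 4 higher (17.4%, background 16.6%) and 5 lower (21.7%, background 21.1%) in the IgG against the Matrigel library. In the antibody against the IgG library 3 were higher (background 9.9%) and 2 lower (background 12.7%). Without 3 genes in each comparison that free RNA could set, 4 of 20 were higher and 4 lower in the first. In the second 2 of 20 were higher and 2 lower. Talin (Tln1) was at 124, 140.2 and 143 CPM. Paxillin (Pxn) was at 67.0, 14.9 and 23.5 CPM and alpha-actinin (Actn1) at 169, 308 and 195 CPM. Of 21 integrin ligands, 18 were measured: 6 were higher (background 16.6%) and 4 lower (22.2%, background 21.1%) in the IgG library. Without 2 that free RNA could set, Cdh1 and Tgfb1, 4 of 16 were higher and 4 lower. With the antibody 5 of 18 were higher (background 9.9%) and 4 lower (background 12.7%). Without 3 that free RNA could set, 5 of 15 were higher and 3 lower. Fibronectin (Fn1) was at 8452, 9780 and 8881 CPM. Fibrillin-1 (Fbn1) was at 3382, 612 and 1275 CPM. Osteopontin (Spp1), a ligand of alpha-v and alpha-9 integrins, was at 84.6, 429.8 and 981 CPM, lowest with Matrigel and highest with the antibody. Edil3, an RGD-bearing ligand of alpha-v integrins, had an IgG to Matrigel ratio of 32.2 (25.6 to 41.0).

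Macrophages carried a different set. Itgam and Itgb2, the chains of the complement receptor Mac-1, were at 377, 393.5 and 547 CPM, and at 326, 305 and 467 CPM. Itgb1 was at 285, 315 and 355 CPM. Itgam took 57.7%, 51.0% and 63.9% of alpha-chain UMIs. Gm49368, an annotated gene that covers Itgam on the same strand including its 3' end, may take or share its reads, so the Itgam level is uncertain. Laminins were close to absent from this class, where Lama1 and Lamc3 had 0 UMIs in each library, and Lamb2, the next highest after Lamc1, was at 9.17, 4.65 and 3.82 CPM.

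Between the IgG and Matrigel libraries 23 chains were measured in macrophages, 9 higher (background 11.8%) and 5 lower (background 13.7%), with a median log2 ratio of 0.22 against -0.01 over all genes. Without 11 chains whose level free RNA could set, 4 of 12 were higher and 1 lower. Itga5 was at 28.7, 71.3 and 65.4 CPM, a ratio of 2.48 (2.23 to 2.77). Itgav was at 23.9, 54.7 and 36.7 CPM, a ratio of 2.28 (2.03 to 2.58). Itgb5, a partner of Itgav, was at 70.8, 117 and 64.2 CPM, a ratio of 1.66 (1.54 to 1.79). Itga9 had a ratio of 1.90 (1.68 to 2.16). Itga5, Itgav and Itgb5 are chains of receptors for RGD ligands. Of the 3 RGD-binding alpha chains measured, Itga5 and Itgav were higher in IgG macrophages. Itga2b was lower, on 17 Matrigel and 4 IgG UMIs, and free RNA could set it. Itgb1, the beta partner of Itga5, was at 285 and 315 CPM. Levels within clusters are given below. Itga4 had a ratio of 0.692 (0.639 to 0.748). The ratio of Itgax, an integrin of dendritic cells and some macrophages, was 0.821 (0.732 to 0.920). It became 1.80 when unnamed clusters nearest to macrophages were included and 1.69 with cells classed singly by their own markers.

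Itgal, the alpha chain of LFA-1 (chr7:127296260-127335138), was at 6.38, 44.4 and 28.3 CPM in macrophages, an IgG to Matrigel ratio of 6.96 (5.71 to 8.55). Itgb7 was at 8.48, 18.7 and 46.6 CPM, ratios of 2.20 (1.80 to 2.71) and then 2.49 (2.15 to 2.90). Itgb3 was at 1.90, 11.6 and 9.42 CPM. All 3 fell outside the naming rule, as another class held more than 10 times their level, and were chosen after their values were seen. Mesenchymal cells of the same libraries held 0.796, 1.08 and 0.941 CPM of Itgal, and 7.06, 1.30 and 4.16 CPM of Itgb7. Of Itgb3 they held more than macrophages did, at 95.6, 19.5 and 40.4 CPM. In the IgG library the macrophage level of Itgal was 6.56% of that in neutrophils. The levels of Itgb7 and Itgb3 were 2.18% and 4.59% of those in basophils. The part of free RNA in these macrophage levels was not tested. The level in macrophages differed between their clusters: Itgal was at 166 CPM in IgG cells of cluster 19 (Kazald1, Tppp3, Hopx) and at 7.07 CPM in IgG cells of cluster 5 (Slco2b1, Stab1). Itgb3 was at 36.1 CPM in IgG cells of cluster 16 (Chil3, Ccl24) and at 1.99 CPM in those of cluster 8 (Cx3cr1, Clec4d).

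With the antibody, 22 chains were measured in macrophages, 5 higher (background 7.35%) and 7 lower (background 11.6%), with a median log2 ratio of -0.28 against -0.13 over all genes. Without 9 such chains, 2 of 13 were higher and 3 lower. A median-of-ratios scaling shifted all ratios of this comparison by 0.14 on the log2 scale. Itga6, a laminin receptor chain, was at 33.5, 38.8 and 15.02 CPM, an antibody to IgG ratio of 0.387 (0.330 to 0.452). Itgb5 had a ratio of 0.547 (0.505 to 0.593) and Itgav 0.671 (0.600 to 0.750). Itgb2 was at 1.53 (1.47 to 1.59), and at 1.42 with the unnamed clusters included, which ends that call. Itgam was at 1.39 (1.34 to 1.44), or 1.53 after that scaling, and Itga5 at 0.918 (0.839 to 1.005).

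Here too the mix of clusters differed. Cluster 5 held 2142, 279 and 54 macrophages, cluster 8 held 68, 970 and 643, and cluster 19 held 95, 318 and 890. Itgb2 was at 1020.0, 845 and 984 CPM in cluster 19 and at 192, 335 and 301 CPM in cluster 8, so that it was higher in cluster 19 in each library. Lower values with the antibody were also seen within clusters. In cluster 8 the antibody to IgG ratio was 0.560 (0.492 to 0.636) for Itgb5, 0.506 (0.404 to 0.630) for Itga6, 0.468 (0.371 to 0.586) for Itgav and 0.497 (0.380 to 0.646) for Itgal. In cluster 19 it was 0.419 (0.338 to 0.519) for Itgb5 and 0.353 (0.293 to 0.425) for Itgal. In cluster 16 Itgb5 was at 1.15 (0.902 to 1.48). Inside cluster 5 the IgG to Matrigel levels were close for Itga5 (18.6 and 21.2 CPM) and for Itgb5 (93.0 and 80.4 CPM). Neutrophil markers summed to 64.7, 218 and 340.0 CPM in macrophages and erythroid markers to 145, 440.0 and 1385 CPM, and their part in these values was not tested.

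**Figure D4:**
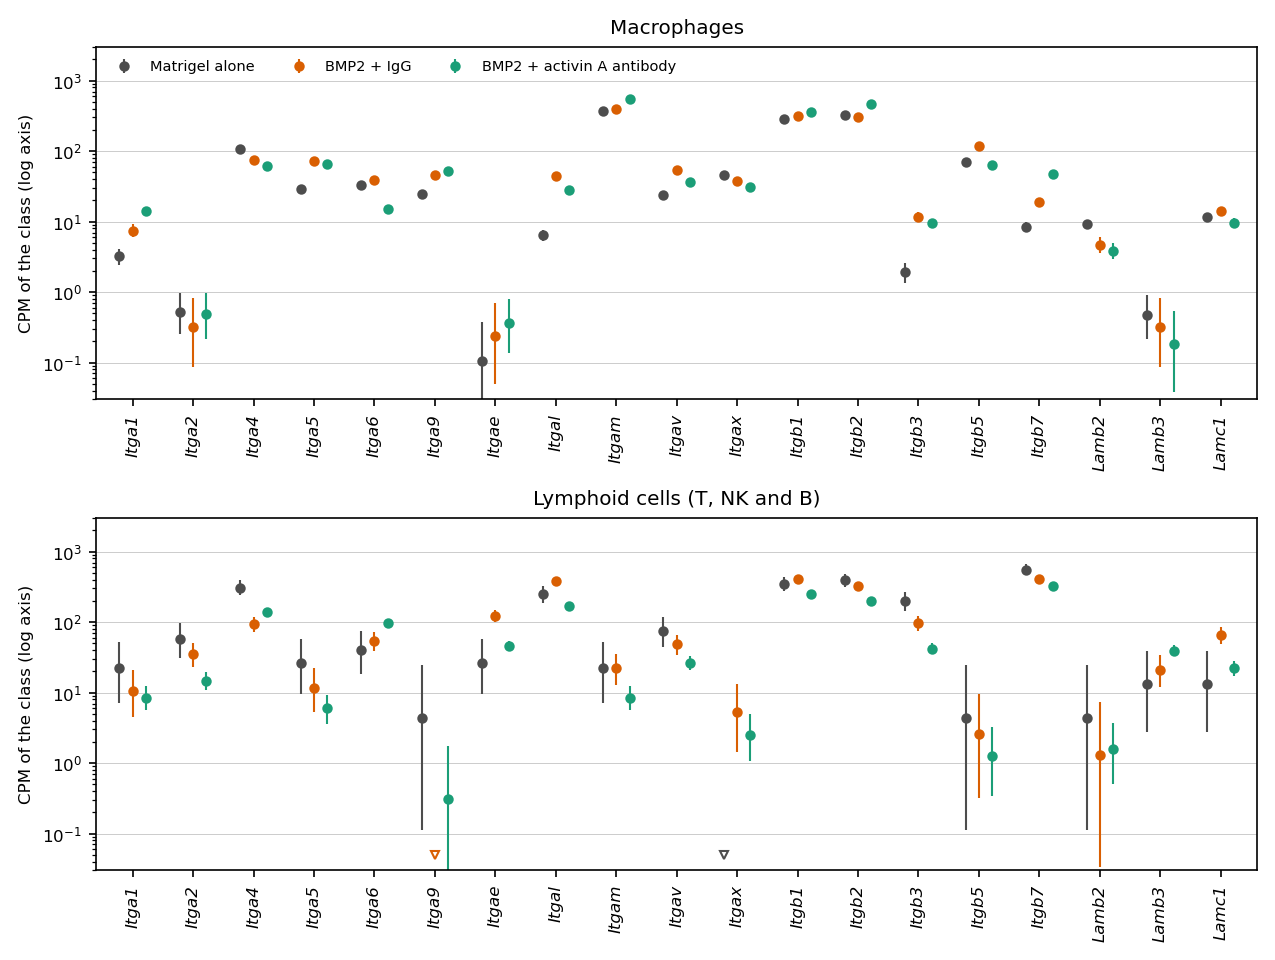
CPM (log axis) of 19 chains in macrophages (top) and lymphoid cells (bottom), by library, with 95% Poisson intervals of counting and open triangles for 0 UMIs. In macrophages Itgal stands at 6.38 in the Matrigel and 44.4 in the IgG library. The bars are wider in lymphoid cells, where the Matrigel library had 163 cells.

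Lymphoid cells were led by Itgb7, the beta chain of gut-homing integrins, at 556, 413 and 329 CPM. Itgal was at 247, 380.4 and 168 CPM, with its partner Itgb2 at 392, 323 and 199 CPM and Itgb1 at 353, 410.4 and 252 CPM. Between the IgG and Matrigel libraries 14 chains were measured, 4 higher (background 21.6%) and 4 lower (background 17.7%). Itga4, the partner of Itgb7 and Itgb1 in lymphocyte homing, was at 309 and 92.8 CPM, a ratio of 0.301 (0.213 to 0.424). Itgae, which with Itgb7 binds E-cadherin, was at 26.5 and 123 CPM, a ratio of 4.64 (2.06 to 13.0). Itgb3 was at 198 and 96.7 CPM, a ratio of 0.488 (0.332 to 0.723). Lamc1 rested on 3 UMIs in the Matrigel and 50 in the IgG library, a ratio of 4.94 (1.60 to 24.8). The class held different cells in these libraries. Cluster 11 (Gata3, Cxcr6, Tcrg-C4) gave it 102 Matrigel and 30 IgG cells. Cluster 12 (Gzma, Ncr1, Prf1) gave 39 and 137, and cluster 24 (Ctla4, Icos, Foxp3) 16 and 126. The part of this mix in the lymphoid ratios was not tested.

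With the antibody, 18 chains were measured in lymphoid cells, 4 higher (background 15.7%) and 12 lower (background 24.5%). The median log2 ratio was -0.98, against -0.23 over all genes. Without 4 chains that free RNA could set, 3 of 14 were higher and 10 lower. Median-of-ratios scaling shifted ratios by 0.27 (log2) here and by 0.14 in the comparison before. B cells numbered 1, 4 and 530, so the lymphoid class of the antibody library alone held many. B cells there held 20.8 CPM of Itgb1, 232 of Itga4 and 99.4 of Lamb3. With T and NK cells alone the antibody to IgG ratio of Itgb1 went from 0.614 to 0.818, that of Itgb2 from 0.615 to 0.761 and that of Itga4 from 1.52 to 1.16, each ending its call. Lamb3 went from 1.88 to 0.851, the opposite direction. Itgal stayed lower at 0.552 (0.476 to 0.640), and Itgae at 0.512 (0.392 to 0.670).

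T cells also differed in kind between libraries. Cluster 23 (Lef1, Tcf7, Trac) held 5, 17 and 597 cells, and its antibody cells had 58.6 CPM of Itgb1 and 190.0 CPM of Itga6. Its Itgb1 ratio to the 17 IgG cells was 0.121 (0.0672 to 0.235). Cluster 24 (Ctla4, Icos, Foxp3) held 16, 126 and 242 cells, and Itgb1 was at 311 and 603 CPM in its IgG and antibody cells, a ratio of 1.94 (1.58 to 2.40). In cluster 12 (Gzma, Ncr1, Prf1), with 137 IgG and 104 antibody cells, Itgb1 was at 0.941 (0.767 to 1.16) and Itgal at 0.756 (0.595 to 0.958). Itgb1 was thus counted as lower within cluster 23, as higher within cluster 24 and as neither within cluster 12.

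**Figure D5:**
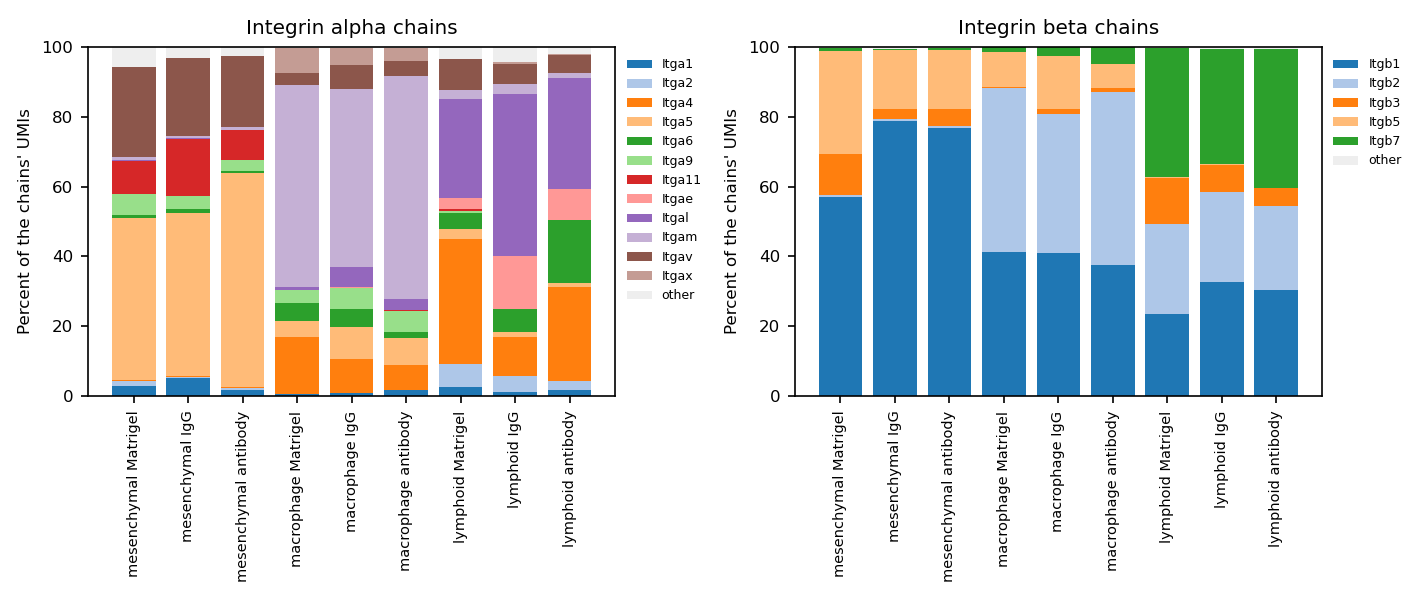
Share of each chain among all integrin alpha-chain UMIs (left) and beta-chain UMIs (right), in percent, for each class and library. Itga5 and Itgb1 have the largest shares in mesenchymal cells and Itgam in macrophages, while lymphoid alpha chains are spread over Itgal, Itga4, Itgae and Itga6, and beta chains over Itgb7, Itgb1 and Itgb2. Itgb1 takes 57.0% of mesenchymal beta-chain UMIs with Matrigel and 78.7% with IgG.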

How the data were processed

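Libraries were made with the 10x 3' v3 kit, per the labels' protocols. Cell Ranger 3.0.2 and mm10 are named, per the submitters' processing notes. The deposited values are UMI counts per gene and barcode, whole numbers with no normalization. The deposited barcode and gene lists hold no measurement. Barcodes under 300 genes or 500 UMIs, or above 15% mitochondrial UMIs, were dropped: 26, 107 and 146 from the Matrigel, IgG and antibody libraries, in that order. Scrublet's automatic threshold marked only 2, 3 and 4 cells, so cells were instead removed from the top score down, 0.8% for every 1000 cells (681, 284 and 285 cells). This left 8542, 5674 and 5682 cells.

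Clustering used scanpy 1.11.5 without batch integration: 3000 variable genes, 30 principal components, 15 neighbours, Leiden resolution 1. The variable genes excluded integrins, laminins and mitochondrial, ribosomal, cell cycle and sex-linked genes. Clusters were named from marker lists. After the clusters were seen, a cluster led by markers of another class was left unnamed (97, 284 and 196 cells led by Cd209a), as were 2 clusters named mesenchymal whose median collagen was under 1%. A further 2 clusters of low depth stayed unnamed. Macrophages and lymphoid cells exclude cells that met the collagen rule.

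UMIs were summed per class and library. Levels have exact Poisson, ratios exact conditional binomial, and shares Clopper-Pearson 95% intervals, for counting error only. Named chains reached 10 CPM in 1 library of the comparison and were at 10% or more of every other class of at least 50 cells, up to 15 per class and comparison by size of ratio, plus the 3 highest per class. A chain under 10% of another class in both libraries is said to be one that free RNA could set. The values of 1 laminin chain are not reported here, though counts include it. The ratio script was checked on simulated counts. The members and lists were chosen with earlier results of these data known.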

Additional observations from a re-analysis of the deposited data

Results flagged for a closer look

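Some chains were counted as higher in one class and lower in another under the same comparison. Each class had 1 library per group, so these differences were not tested. The value given is the ratio in the class where the chain was higher divided by the ratio in the class where it was lower. For IgG against Matrigel it was 3.15 for Itga9 and 3.72 for Itgb5, both higher in macrophages and lower in mesenchymal cells. It was 3.54 for Itgav, higher in macrophages and lower in lymphoid cells, and 15.4 for Lamc1, higher in lymphoid and lower in mesenchymal cells. For antibody against IgG it was 4.62 for Itga6 (higher in lymphoid cells, lower in macrophages), 2.49 for Itgb2 (higher in macrophages, lower in lymphoid cells) and 4.76 for Itgb3 (higher in mesenchymal, lower in lymphoid cells). In the same comparison it was 2.97 for Lamb3 (higher in lymphoid, lower in mesenchymal cells) and 5.19 for Lamc1 (higher in mesenchymal, lower in lymphoid cells). The Lamb3 and Itgb2 values rest on lymphoid ratios that change when B cells are left out. For IgG against Matrigel, the lymphoid part of the Itgav value rests on 17 Matrigel UMIs, at 74.9 CPM (43.7 to 120). That of the Lamc1 value rests on 3 Matrigel UMIs. Both values are therefore imprecise.

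Basophils and mast cells, which no comparison used, held 4 chains at more than 3 times the level of every other named immune class and of mesenchymal cells in the IgG library. In its 92 such cells Itga1 was at 1480.0 CPM, Itga2b at 965 CPM, Lama5 at 581 CPM and Itga2 at 245 CPM. The 75 antibody cells held 341, 588, 568 and 207 CPM in the same order. The Matrigel library had 1 such cell.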

How the results depend on the processing

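No paired analysis was possible because each group had 1 library. Of the counts of chains recomputed under other settings, 84 stayed within 1.5 times and 28 did not. Of named ratios, 424 stayed within their counting interval, 77 moved and 2 reversed. Of the shares of cells, 5 stayed the same and 22 moved. The causes were not tested, except that the filters and the interval rule by construction change how many chains can be counted. Mesenchymal, IgG against Matrigel: 11 higher with no filter and 11 with the mean over cells. Mesenchymal, antibody against IgG: 2 lower with the whole interval beyond 1.5. Macrophages, IgG against Matrigel: 15 higher with no filter; lower were 1 with at least 50 UMIs, 1 with the whole interval, 3 with the mean over cells and 8 with doublets kept. Macrophages, antibody against IgG: higher were 3 with at least 50 UMIs, 11 with no filter, 1 with the whole interval and 3 with each cell classed on its own; lower were 4 with median-of-ratios scaling, 3 with at least 50 UMIs, 11 with no filter and 2 with the whole interval. Lymphoid cells, IgG against Matrigel: higher were 10 with no filter and 2 with the whole interval; lower were 2 with median-of-ratios scaling, 2 with at least 50 UMIs, 13 with no filter and 1 with the whole interval. Lymphoid cells, antibody against IgG: higher were 10 with no filter, 0 with the whole interval and 2 with T and NK cells alone; lower were 7 with at least 50 UMIs, 19 with no filter and 5 with the whole interval. The 2 reversals were Itga2 in lymphoid cells, IgG against Matrigel, at 1.12 with the mean over cells, and Lamb3 in lymphoid cells, antibody against IgG, at 0.851 with T and NK cells alone. The Itgax ratio in macrophages, IgG against Matrigel, also crossed 1 under the settings given above. That chain had been counted as neither higher nor lower and is not among these reversals. The Matrigel library's 163 lymphoid cells, at a median of 1207 UMIs, limit the precision of that class.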

Other observations

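Dendritic cells (146, 67 and 44 cells in the Matrigel, IgG and antibody libraries) held Itgae at 333, 461 and 301 CPM and Itgax at 74.7, 76.9 and 110.1 CPM, the chains that mark dendritic subsets. Itgb7 was at 417, 297 and 214 CPM in them. Neutrophils, seen in 85 IgG and 72 antibody cells, held Itgam at 742 and 364 CPM and Itgal at 676 and 377 CPM.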
